A study of Bos taurus with 20 samples.

Results

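By name, the miR-26 family of cattle is represented by 3 mature miRNAs among the 1029 listed in these small RNA libraries, namely bta-miR-26a, bta-miR-26b and bta-miR-26c. They were chosen by name, all of them were found, and no measured value entered the choice. The libraries came from spermatozoa of 20 Holstein-Friesian bulls, with 1 library per bull. Fertility was high in 10 of these bulls (HF) and low in the other 10 (LF), as ranked by an adjusted score of pregnancy to service. All were mature bulls in use for artificial insemination. The frozen-thawed semen of several ejaculates was pooled per bull and treated with a somatic cell lysis buffer before RNA extraction, so that each value is an average over ejaculates. A bulk library cannot tell fewer cells that carry a miRNA from less of that miRNA per cell.

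Mature miRNAs guide Argonaute proteins to messenger RNAs, mainly through the short stretch near the 5′ end called the seed, and lower the translation or the stability of their targets. Members of the miR-26 family are expressed in many tissues, slow the cell cycle, and act on the mRNA of EZH2, the methyltransferase that places the repressive H3K27 mark. Their genes lie within introns of the CTDSP family, which encodes small phosphatases of the RNA polymerase II tail. Spermatozoa carry miRNAs that remain from spermatogenesis or are taken up in the epididymis, and can deliver them to the oocyte.

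In the RefSeq annotation of ARS-UCD2.0, the precursor genes MIR26A-1, MIR26A-2 and MIR26B overlapped CTDSPL, CTDSP2 and CTDSP1, respectively. bta-miR-26a is therefore made from 2 genes. MIR26C, also named bta-mir-3603, had the same start and end as MIR26A-1, and the strand of each was not used here. Positions are not given because the reads had been counted on another build. Mature sequences were not used here either, so that whether bta-miR-26c shares the seed of the other two was not tested.

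The deposited values are normalized counts, on the scale of CPM, that is, counts relative to the total of the library. The reads behind them, counted over the listed miRNAs only, ranged from 103204 to 3097581 per library, with a median of 1092881. The depth of a library and the share of a miRNA in it refer here to these reads, not to all reads sequenced. HF replicate 17, LF replicate 11 and LF replicate 13 were the 3 libraries under 500000 reads. The sperm and spermatid miRNAs bta-miR-34b, bta-miR-34c and bta-miR-449a were present in every bull, at a summed normalized count from 25773 to 76838.

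bta-miR-26a was the abundant member, and it was read in all 20 bulls. In HF bulls its normalized count was 1549 at the lowest (replicate 17), 2066 at the median and 3001 at the highest (replicate 15). In LF bulls it was 1549 at the lowest (replicate 1), 2425 at the median and 3503 at the highest (replicate 5). The groups overlapped and had the same lowest level, while 3 of the 10 LF bulls lay above the highest HF bull. The highest bull of all stood 2.26-fold above the lowest. These levels rested on 168.5 to 5869.5 reads per library. bta-miR-26a ranked 40th of all miRNAs by mean level and made up 0.236% ± 0.0726 (SD, n = 20 bulls) of a library, from 0.136% to 0.425%.

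bta-miR-26b, the minor member, was also read in all 20 bulls, on 3 to 354 reads. In HF bulls its normalized count was 27.6 at the lowest (replicate 17), 83.7 at the median and 177.9 at the highest (replicate 15). In LF bulls it was 46.3 at the lowest (replicate 11), 106.1 at the median and 211 at the highest (replicate 5). The groups again overlapped, and the highest and lowest bulls differed 7.66-fold. The lowest value of each group came from its shallowest library. In HF replicate 17 it rested on 3 reads, the smallest number taken here as a level, and the exact 95% Poisson interval of its normalized count was 5.69 to 80.6. In LF replicate 11 it rested on 15 reads, with an interval of 25.9 to 76.4. Here and elsewhere, an interval on reads covers the error of counting and nothing else, as several reads can be PCR copies of 1 molecule. bta-miR-26b ranked 158th of all miRNAs and made up 0.0104% ± 0.00442 (SD, n = 20 bulls) of a library.

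**Figure D1:**
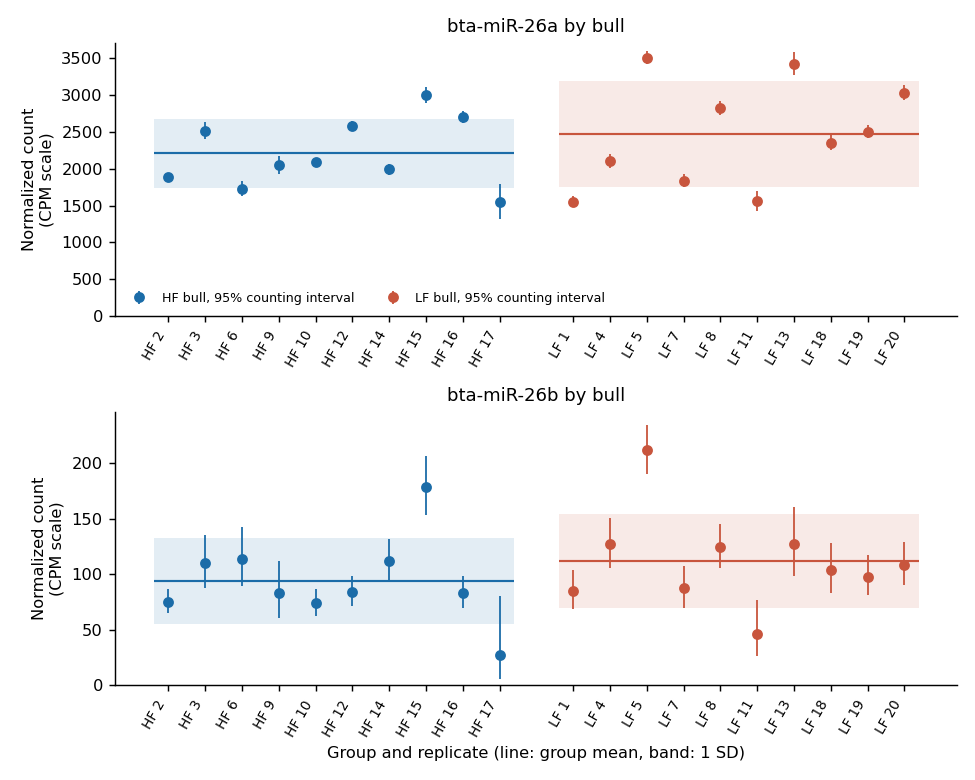
Normalized count (CPM scale, axes from 0) of bta-miR-26a and bta-miR-26b in each of the 20 bulls, with bars for the exact 95% counting interval, a line for the mean of each group and a band for 1 SD. HF replicate 15 and LF replicate 5 had the highest value of their group for both members, and the interval of bta-miR-26b in HF replicate 17 runs from 5.69 to 80.6.

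bta-miR-26c was listed at 0 in all 20 bulls. It was 1 of 298 miRNAs at 0 in every bull, which are 29.0% of the 1029 listed. A library with no read of it could still hold 3 reads per library, which corresponds to a normalized count of 1.19 in the deepest and 27.6 in the shallowest library. Over the 23350594 reads of all libraries together, 3 reads, the smallest number taken here as a level, would be a share of 1.28e-05%. No comparison of bta-miR-26c between HF and LF bulls was possible, and its absence from spermatozoa is not shown beyond these limits.

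The fertility groups were compared to see whether the family differs between HF and LF bulls, and neither measured member passed the thresholds. The normalized count of bta-miR-26a averaged 2208 ± 467 (SD) in the 10 HF bulls and 2467 ± 719 (SD) in the 10 LF bulls. Its log2 fold change, HF over LF, was -0.13 (standard error 0.17), with an adjusted p-value of 0.96 from limma (unadjusted p = 0.45). As a fold change this is 0.91, with a 95% interval from 0.72 to 1.16, so that a 1.5-fold difference in either direction lay outside the interval. The median of the LF bulls exceeded the level in 6 of 10 HF bulls. Without LF replicate 5 the log2 fold change was -0.069 (limma, unadjusted p = 0.69), and without LF replicate 1 it was -0.20 (limma, unadjusted p = 0.24).

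For bta-miR-26b the normalized count averaged 94.0 ± 38.7 (SD) in the 10 HF bulls and 111.7 ± 42.7 (SD) in the 10 LF bulls. The log2 fold change was -0.28 (standard error 0.27), with an adjusted p-value of 0.96 from limma (unadjusted p = 0.30). The fold change of 0.82 had a 95% interval from 0.56 to 1.21. This interval includes a level in HF bulls 1.5-fold lower than in LF bulls, but not one 1.5-fold higher. Here too, the LF median exceeded the level in 6 of 10 HF bulls. Without HF replicate 17, whose value rested on 3 reads, the log2 fold change was -0.10 (limma, unadjusted p = 0.65), and without LF replicate 11 it was -0.41 (limma, unadjusted p = 0.12).

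Of the 2 members tested, 0 were called, a call being a fold change over 1.5 together with an unadjusted p-value below 0.05. Among all 435 miRNAs tested, 9 were called by this rule (2.07%). With an adjusted p-value under 0.05 from limma, 0 of the 435 were called (0%), the smallest being 0.92, while 15 had an unadjusted p-value under 0.05. On recovered reads, edgeR's quasi-likelihood and likelihood ratio tests and DESeq2 gave 0 adjusted p-values under 0.05 as well, with 18, 16 and 18 unadjusted ones. The 2 log2 fold changes of the family were both negative, as were 49.9% of those of all miRNAs tested. In the order of unadjusted p-values, bta-miR-26b stood at place 138 and bta-miR-26a at place 193.

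**Figure D2:**
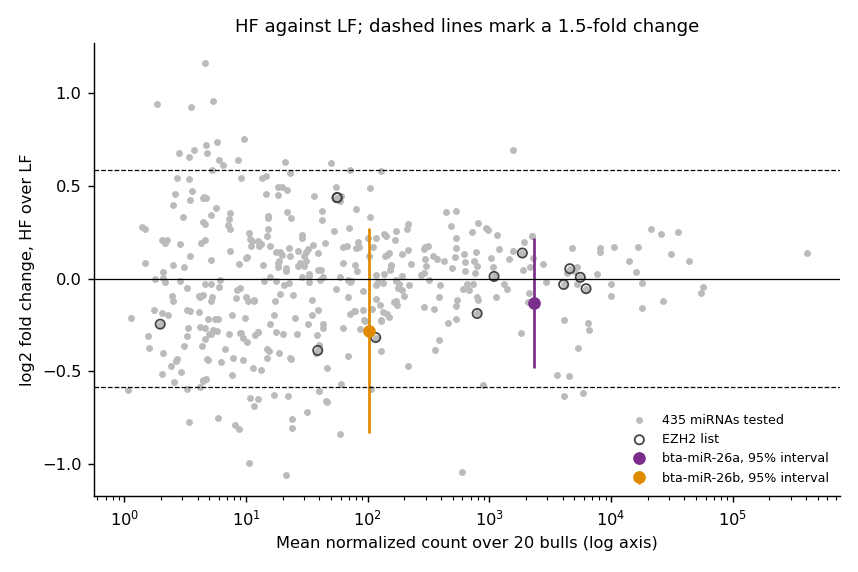
log2 fold change, HF over LF, against the mean normalized count (log axis) for the 435 miRNAs tested, with bta-miR-26a, bta-miR-26b and their 95% intervals, and open circles for the 12 tested miRNAs of the EZH2 list. The intervals of both members include 0, at -0.13 and -0.28, and dashed lines mark a 1.5-fold change.

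Every bull held more bta-miR-26a than bta-miR-26b. Mature miRNAs have about the same length, so their normalized counts need no correction for length. Whether the library preparation took up both members with equal ease was not tested. bta-miR-26a was at the median 24.9 times as abundant as bta-miR-26b in HF bulls, from 15.2 to 56.2 times. In LF bulls the median was 22.7 times, from 16.6 to 33.6 times. As a share of the summed family level, bta-miR-26b made up 4.03% ± 1.34 (SD) in the 10 HF bulls and 4.32% ± 0.957 (SD) in the 10 LF bulls. The lowest share, 1.75% in HF replicate 17, had an exact 95% binomial interval of 0.363% to 5.04%. The highest, 6.17% in HF replicate 6, had an interval of 4.87% to 7.68%, so that these extremes overlapped narrowly in their counting error. The reads of HF replicate 6 are less sure, since its smallest value was a fraction of a read, although 95.2% of its values were whole.

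Neither the balance of the members nor their sum differed between the groups by more than the spread between bulls. The log2 ratio of bta-miR-26b to bta-miR-26a averaged -4.64 ± 0.54 (SD) over the 10 HF bulls and -4.49 ± 0.33 (SD) over the 10 LF bulls. The groups differed by -0.15 (standard error 0.20, two-sided permutation test, p = 0.48). Without HF replicate 17 this difference was -0.025, and without HF replicate 6 it was -0.23. The summed level of the family averaged 2302 ± 492 (SD) in the 10 HF bulls and 2579 ± 753 (SD) in the 10 LF bulls. On the log2 scale the sums differed by -0.14 (standard error 0.17, two-sided permutation test, p = 0.43). Both permutation p-values were 0.48 once adjusted by Benjamini-Hochberg for the 2 comparisons.

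The bulls varied more in both members than counting alone would give. The coefficient of variation of bta-miR-26a was 25.9% over the 20 bulls, where counting error alone corresponds to 2.37%. For bta-miR-26b it was 39.6%, where counting error corresponds to 10.5%, and without HF replicate 17 these values were 35.2% and 9.82%. Among the 25 other tested miRNAs within 2-fold of the mean level of bta-miR-26a, the median coefficient of variation was 28.3%, within limits of 18.1% and 46.3%. A larger one than that of bta-miR-26a was found for 14 of the 25. Of the 79 miRNAs within 2-fold of bta-miR-26b, 30 varied more than it did, with a median of 34.3%. Neither member stood out in its spread from miRNAs of like level.

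In the order of mean levels, bta-miR-26a stood between bta-miR-148b at 2764 ± 507 (SD, n = 20) and bta-miR-192 at 2303 ± 821 (SD, n = 20). bta-miR-148b was higher than bta-miR-26a in 15 of 20 bulls, by 0.26 ± 0.35 (SD) on the log2 scale, and bta-miR-192 was higher in 9 of 20, at a difference of -0.077 ± 0.36 (SD). bta-miR-26b stood between bta-miR-7857-5p at 103.8 ± 42.3 (SD, n = 20) and bta-miR-369-3p at 102.8 ± 57.3 (SD, n = 20). The difference to either was smaller than its SD between bulls, which was 1.02 on the log2 scale for bta-miR-7857-5p and 1.01 for bta-miR-369-3p. For all 4 neighbours the mean difference to the member was thus smaller than its SD, although bta-miR-148b was the higher one in most bulls.

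Bulls with more bta-miR-26a also had more bta-miR-26b. Over the 20 bulls, Pearson's r of their log2 levels was 0.71 (permutation test, p = 0.0002) and Spearman's rho was 0.61 (permutation test, p = 0.00456). Adjusted over the 13 relations computed here, these p-values were 0.0013 and 0.0296. Without the 2 bulls farthest from the median of bta-miR-26a, LF replicates 5 and 13, r was 0.64 (n = 18, permutation test, p = 0.00206). Within the groups it was 0.64 in HF and 0.80 in LF bulls, and without HF replicate 17 it was 0.68. Both levels come from the same library and are divided by the same factor. How reads that could be placed on either member were counted is not given in the sources used here, and its part in the relation was not tested.

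**Figure D3:**
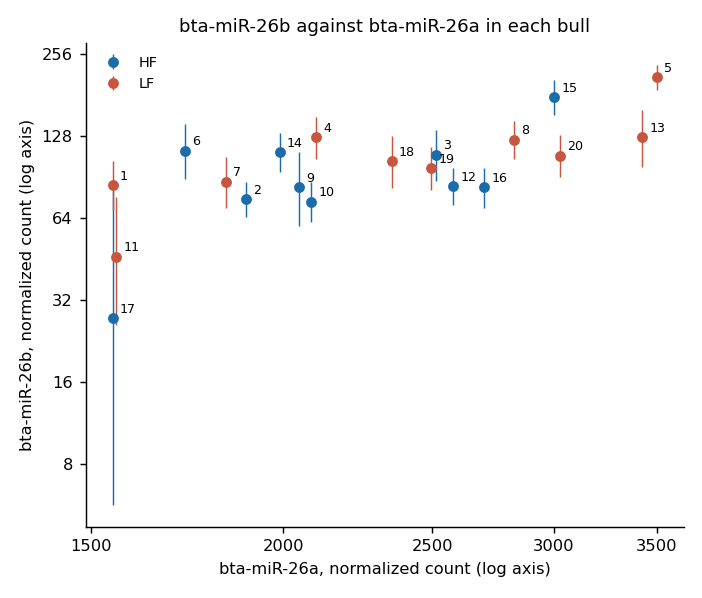
Normalized count of bta-miR-26b against that of bta-miR-26a in each bull (both axes logarithmic), with the replicate number beside each point and bars for the exact 95% counting interval of bta-miR-26b. HF replicate 15 and LF replicate 5 lie at the upper end, and HF replicate 17 and LF replicate 11, at 27.6 and 46.3, at the lower end of bta-miR-26b.

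The relation of bta-miR-26b to library depth changed sign with the 2 shallowest libraries. For bta-miR-26b, Pearson's r with the log10 number of reads was 0.51 (permutation test, p = 0.0296, adjusted p = 0.0756) while Spearman's rho was -0.041 (permutation test, p = 0.865, adjusted p = 0.997). Without HF replicate 17 and LF replicate 11, r was -0.27 (n = 18, permutation test, p = 0.276) and rho was -0.43. For bta-miR-26a, r was 0.34 (permutation test, p = 0.152, adjusted p = 0.2) and rho was 0.27 (permutation test, p = 0.24, adjusted p = 0.407), and without the same 2 bulls r was -0.068 (n = 18, permutation test, p = 0.788).

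The pattern of each member over the bulls was compared with the 305 other miRNAs that had a median of at least 10 reads, by Pearson's r of the log2 levels, as a description. Most like bta-miR-26a were bta-miR-202, a miRNA known from gonads, at r = 0.90, and bta-miR-142-5p, a miRNA of blood cells, at r = 0.88. They were followed by bta-miR-30c at 0.84, bta-let-7c at 0.84 and bta-let-7f at 0.83. The normalized count of bta-miR-202 ran from 27.8 to 298 over the bulls, a wider range than that of bta-miR-26a. bta-miR-26b came 20th in this order.

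Most like bta-miR-26b were bta-let-7f at r = 0.896, bta-miR-135a at 0.88, bta-miR-183 at 0.85, bta-let-7d at 0.82 and bta-miR-92b at 0.81. Of these, bta-miR-92b and bta-let-7d fell to 0.63 and 0.65 without HF replicate 17. bta-miR-26a came 13th, and 7th without HF replicate 17. bta-let-7f, a let-7 miRNA, was the 1 miRNA among the 5 most alike of both members, but without HF replicate 17 it came 9th for bta-miR-26a and was no longer in both lists. The median r of the 305 miRNAs was 0.071 with bta-miR-26a and 0.10 with bta-miR-26b. All these levels share the libraries and their normalization, which was not separated from the likeness.

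**Figure D4:**
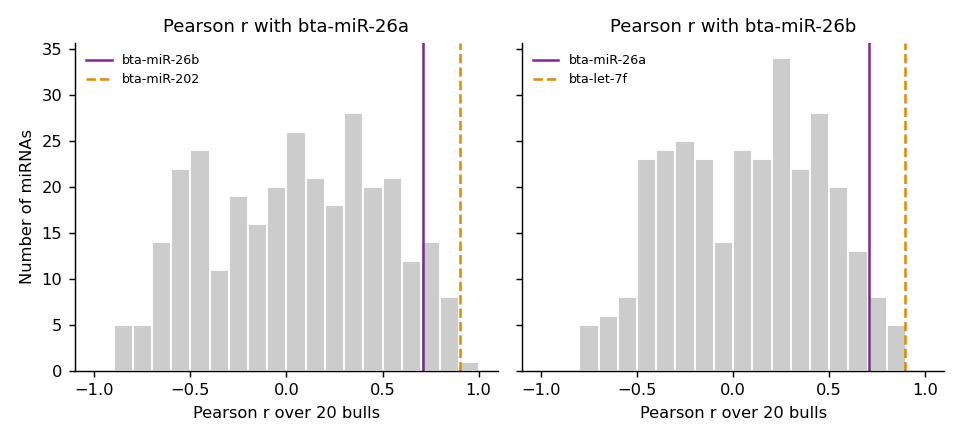
Number of miRNAs by Pearson's r with bta-miR-26a (left) and with bta-miR-26b (right) over 20 bulls, for the 305 other miRNAs with a median of at least 10 reads. The solid line marks the other member, at 0.71 in both panels, and the dashed line the most alike miRNA, bta-miR-202 at 0.90 and bta-let-7f at 0.896.

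Since bta-miR-142-5p was so alike, the members were also set against summed marker miRNAs of the cell types semen can hold, a step added after the values were seen. By RT-PCR of this sperm RNA, the study saw no amplification of PTPRC, CDH1 or KIT. These were its mRNA markers of leukocytes, epithelial cells and germ cells, in that order. The 4 leukocyte miRNAs, of which 2 were read in every bull and 0 were at 0 in every bull, summed to 53.7 to 208 in HF and to 39.1 to 284 in LF bulls, and the groups overlapped. The level of bta-miR-26a followed this sum, with r = 0.85 (permutation test, p = 2e-05, adjusted p = 0.00026) and rho = 0.83 (permutation test, p = 4e-05, adjusted p = 0.00052). Without LF replicates 5 and 7, r was 0.83, within HF bulls it was 0.82 and within LF bulls 0.89. Most of the sum was bta-miR-142-5p, itself picked above for its likeness, so that this is no independent support.

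Apart from bta-miR-142-5p, the leukocyte miRNAs were rare. The r of bta-miR-26a was 0.58 with bta-miR-142-3p, read in 14 bulls, and 0.30 with bta-miR-150, a lymphocyte miRNA at 3.97 to 64.3. With bta-miR-223, the miRNA of neutrophils and monocytes, read in 16 bulls with at most 11 reads, r was -0.059. The part that other cells have in the level of bta-miR-26a was not tested. For bta-miR-26b, r with the leukocyte sum was 0.43 (permutation test, p = 0.0579, adjusted p = 0.108) and rho was 0.26 (permutation test, p = 0.269, adjusted p = 0.407).

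**Figure D5:**
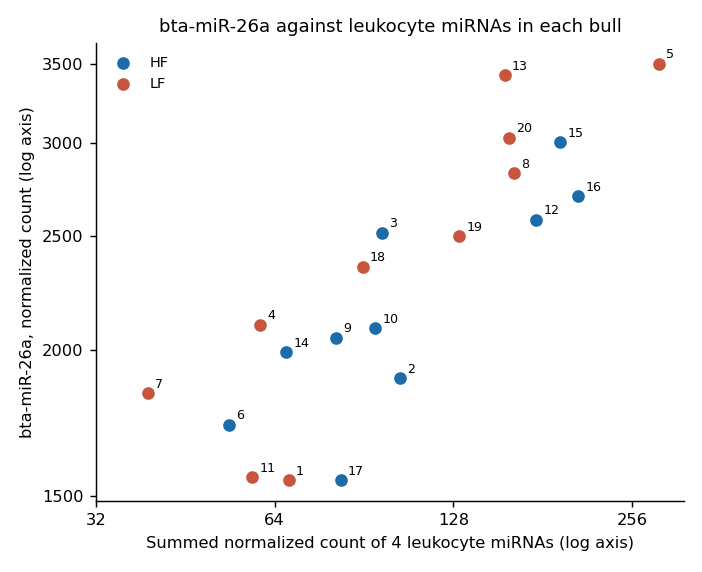
Normalized count of bta-miR-26a against the summed normalized count of 4 leukocyte miRNAs in each bull (both axes logarithmic), with the replicate number beside each point. HF and LF bulls lie along the same rise, from sums of 39.1 to 284.

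bta-miR-26b was related to the sum of the 5 muscle miRNAs, with r = 0.59 (permutation test, p = 0.00613, adjusted p = 0.0266) and rho = 0.52 (permutation test, p = 0.0201, adjusted p = 0.0772). Without LF replicates 4 and 5, r was 0.47 (n = 18, permutation test, p = 0.05). The muscle miRNAs, of which 2 were read in every bull and 0 were at 0 in every bull, summed to 119.5 to 1584 in HF and to 100.8 to 1979 in LF bulls. Among those tested for a group difference, bta-miR-143 was the largest, with a mean of 420 in HF and 459 in LF bulls. Means were 66.5 and 54.6 for bta-miR-1, and 6.84 and 7.79 for bta-miR-133a. The r of bta-miR-26b with each single muscle miRNA is not given here, so the relation is one with the sum. With the 6 epithelial miRNAs, 5 of them read in every bull and 0 at 0 in every bull, bta-miR-26b had r = 0.53 (permutation test, p = 0.0211, adjusted p = 0.0687), which was 0.15 without HF replicate 17 and LF replicate 8. Their sum was 6544 to 13137 in HF and 9680 to 15554 in LF bulls. The sum of the sperm and spermatid miRNAs had r = 0.47 with bta-miR-26a (permutation test, p = 0.0349, adjusted p = 0.0756) and r = 0.13 with bta-miR-26b. Without HF replicate 2 and LF replicate 11, these were 0.60 (n = 18, permutation test, p = 0.00959) and 0.0056. Within LF bulls they were 0.78 and 0.70, and within HF bulls 0.29 and -0.15. For the 2 erythrocyte miRNAs, 1 of them read in every bull, r was 0.39 with bta-miR-26a and 0.083 with bta-miR-26b. These sums ran from 7.56 to 49.7 in HF and from 5.41 to 53.3 in LF bulls, and what part these cells have in the family's levels was not tested.

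EZH2 mRNA is also acted on by other miRNAs, and 13 of them were described beside the family. All 13 were listed and 12 passed the filter on low values. bta-miR-124a and bta-miR-124b had identical values in all 20 bulls and are counted as 1 measurement, which leaves 11. Of these 11, 5 had a positive and 6 a negative log2 fold change, from -0.39 (bta-miR-98) to 0.44 (bta-miR-124a and bta-miR-124b), with a median of -0.032, beside 0.0051 for all miRNAs tested. By the rule above 0 of the 11 were called, against 2.07% of all miRNAs tested, the smallest unadjusted p-value from limma being 0.16. The study itself, using edgeR and the same thresholds, reported bta-miR-98 as differentially expressed. In the limma fit used here, on log2(normalized count + 1), its unadjusted p-value was 0.24.

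Several miRNAs of this list were more abundant than the miR-26 family. bta-let-7a-5p had a normalized count of 6230 ± 1767 (SD, n = 20), bta-miR-101 one of 5583 ± 1008 (SD, n = 20), bta-let-7b one of 4576 ± 839 (SD, n = 20) and bta-let-7c one of 4077 ± 1139 (SD, n = 20). bta-miR-101 and bta-let-7b differed little between the groups, with log2 fold changes of 0.0067 and 0.053. At the other end, bta-miR-138 was at 1.97 ± 1.76 (SD, n = 20), read in 14 bulls, and bta-miR-214, read in 9 bulls, did not pass the filter.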

How the data were processed

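Small RNA libraries of 20 bulls were analysed, grouped as HF or LF by the deposited labels. The authors clipped adapters with Cutadapt, kept reads of 15 to 28 bases, removed other short RNA species, and counted the rest on the bovine genome (ARS-UCD1.2 with Y) and miRBase 22.1 with Bowtie and miRDeep2. The deposited values are a signal on the CPM scale, that is, read counts after scaling to the library total and by TMM. Whole reads were recovered by dividing each library by the value of 1 read (the largest low value of which low values are whole multiples), and 95.0% of values above 0 came out whole within 0.01 of a read. Values of bta-miR-26b were whole in 20 bulls, and those of bta-miR-26a were whole in 9 and a whole number plus 0.5 of a read in 11 (rounded for count tests). No column was without a sample.

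Only miRNAs whose normalized count reached 1 in more than 10 bulls were tested (435). limma 3.58.1 (R 4.3.3, variance trend) was fitted on log2(normalized count + 1), with Benjamini-Hochberg adjustment over all miRNAs. Fold changes are on this scale and understate those of rare miRNAs. Permutation tests were two-sided with 100000 resamples (scipy 1.17.1). edgeR 4.0.16 and DESeq2 1.42.0 on recovered reads, other scalings, pseudocounts and filters, and omitted bulls were alternatives. The fits were tested on simulated data.

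The members were chosen by name, but earlier results of these data were known when they, the lists and the alternatives were set. Named are the members, their neighbours in level, the 5 miRNAs most like each in pattern, the EZH2 list and cell type markers. miRNAs with the same bases 2 to 8 were to be named, but sequences were not used here. The center where semen was collected was not analysed here, so no batch was formed. Each group was measured in separate bulls. The ARS-UCD2.0 gene table served for names and overlaps of genes.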

Additional observations from a re-analysis of the deposited data

Results flagged for a closer look

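For bta-miR-26b, LF replicate 5 stood apart from the other LF bulls, with a normalized count of 211 where the next highest LF bull was at 126.9. The gap was 0.512 of the range of the group, above Dixon's 95% critical value of 0.466. It was measured on normalized counts, not on the log2 scale of the group comparison, where a high value stands out less. On the log2 scale this gap was not tested. The value rested on 354 reads, and its exact 95% Poisson interval was 189.9 to 234. In the same bull bta-miR-26a was at 3503, the highest of all bulls but close to the 3425 of LF replicate 13. Without LF replicate 5 the log2 fold change of bta-miR-26b was -0.17 (limma, unadjusted p = 0.53). In all, 8 groups of 10 bulls were examined for such gaps and 1 exceeded the critical value, while chance gives about 1 in 20.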

How the results depend on the processing

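The log2 fold changes of bta-miR-26a and bta-miR-26b stayed negative and short of the thresholds in each of the 31 alternatives for either, with a range over tests, scalings, pseudocounts, filters and the omission of shallow libraries of -0.19 to -0.087 for bta-miR-26a (unadjusted p from 0.31 to 0.60, adjusted p from 0.91 to 0.99) and of -0.34 to -0.21 for bta-miR-26b (unadjusted p from 0.23 to 0.36, adjusted p from 0.91 to 0.99). One of these, the share of reads other than bta-miR-100, was added after seeing the data. With each bull left out in turn, bta-miR-26a ranged from -0.20 to -0.069 and bta-miR-26b from -0.41 (without LF replicate 11) to -0.10 (without HF replicate 17). The difference in the log2 ratio stayed negative in its 23 alternatives, from -0.23 (without HF replicate 6) to -0.025 (without HF replicate 17), and that in the summed level in its 24, from -0.21 to -0.071 without a bull. Without the libraries under 500000 reads the log2 fold change was -0.087 for bta-miR-26a and -0.21 for bta-miR-26b. bta-miR-26c was at 0 in every library, so its planned tests and alternatives gave no value. The number of all miRNAs called was 9 (4 higher and 5 lower in HF bulls). It was 13 with edgeR's quasi-likelihood test (6 and 7), 12 with its likelihood ratio test (5 and 7), 11 with DESeq2 (5 and 6), 4 with a pseudocount of 5, 15 without a filter, 0 with at least 10 counts in every bull, and 7 to 15 with a bull left out (15 without HF replicate 6 and 14 without LF replicate 1, 11 or 13). With at least 10 counts in every bull, 5 of 222 had an unadjusted p-value under 0.05 (limma). With CPM without a TMM factor, 3 were higher and 8 lower in HF bulls. No paired analysis was possible because each bull was either HF or LF, and the labels match no HF bull with an LF bull.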
